A study of Saccharomyces cerevisiae with 24 samples.

Results

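SUC2 (YIL162W) and MAL31 (YBR298C), the yeast genes for invertase and for a maltose permease, were followed through aerobic glucose cultures of Saccharomyces cerevisiae by strain and by the glucose left in the medium. They are 2 genes of the 6330 probes measured, chosen as genes for the use of sucrose and maltose. Their spots are known only through a match of signal to the study's gene lists, so the strain difference entered the identification of both probes. V5 is the wild-type parent strain, and V5.TM6*P is its mutant, in which the 7 hexose transporter genes HXT1 to HXT7 are deleted and sugar enters through a chimeric transporter, Tm6*, built from Hxt1 and Hxt7. Both strains carried URA3 reintegrated to remove their uracil requirement, and both grew in bioreactors at 30 °C and pH 5 on defined minimal medium that started with 5% glucose. The 6 RNA samples of V5 were taken as residual glucose fell from 38.4 g/L to 7.4 g/L, and the 6 of V5.TM6*P as it fell from 36.5 g/L to 5.6 g/L.

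Each RNA sample was amplified, labelled with radioactive phosphorus and hybridised to 2 filter arrays of spotted gene fragments, which makes 24 arrays. Values below are log2 of the background-subtracted signal over the median of the same array, averaged over both arrays of a sample, so that 0 is the signal of the median probe. A value is an average over the culture, in which more cells expressing a gene and more RNA per cell cannot be told apart. A value of 1 log2 unit is a doubling, and each probe has its own efficiency, so that only differences between samples, not levels, can be compared between genes. The samples of each strain came from 2 fermentations, the sources used here do not say which samples shared one, and each strain is represented by a single construct. P-values count the 6 samples of a strain as independent, measure only the spread between them, which includes their difference in glucose, and are too small where samples of a fermentation vary together.

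Sucrose is split outside the cell by invertase, the secreted product of SUC2, into glucose and fructose. Maltose is first carried into the cell by a proton-coupled permease such as Mal31 and then split inside it by a maltase, and the MAL genes also need maltose and the Mal activator for full induction. Both genes are classical targets of glucose repression, in which the zinc-finger repressor Mig1 with its corepressors holds promoters silent while glucose is plentiful, and the Snf1 kinase lifts that hold as glucose runs out. Low glucose induces SUC2 most strongly when some glucose is still present, a response read through hexose sensing and phosphorylation, in which the hexokinase Hxk2 takes part.

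SUC2 lies on chromosome IX between YIL163C and SMU2, and MAL31 on chromosome II between MAL33, a Mal activator gene, and a small reading frame beside MAL32, a maltase gene, by the order of genes in RefSeq R64. In a list of predicted Mig1 binding sites made by the study for genes of this data set, both genes have entries. Only listed oligos that hold this repressor's G-rich motif, and are no part of a longer listed one, were kept. The shared motif therefore follows from that choice. They are shown with the 6-base core in capitals, 5′ to 3′ as listed and read here without regard to strand.
SUC2 oligo a: atCCGGGGgc
SUC2 oligo b: GTGGGG
SUC2 oligo c: GCGGGG
MAL31 oligo a: CCCCACaaaaattat
MAL31 oligo b: GTGGGG
The core of MAL31 oligo a is the reverse complement of MAL31 oligo b and of SUC2 oligo b. These are predictions and not measured binding, entries that the list puts in brackets were left out, and binding was not measured in these samples.

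SUC2 was low in every V5 sample and high in every V5.TM6*P sample. In V5 it read -0.78 at 38.4 g/L, -0.73 at 35 g/L, -0.02 at 25.5 g/L, -1.54 at 24.4 g/L, -1.07 at 10.5 g/L and 0.08 at 7.4 g/L. In V5.TM6*P it read 2.90 at 36.5 g/L, 2.38 at 34.8 g/L, 2.15 at 26.3 g/L, 2.36 at 25.1 g/L, 2.49 at 13.5 g/L and 1.95 at 5.6 g/L. The wild-type values stood below or close to the median probe, with the highest at 7.4 g/L, and the strains were separated by a gap of 1.87 log2 units between the lowest mutant and the highest wild-type sample.

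MAL31 was also higher in every V5.TM6*P sample than in any V5 sample, by a narrower margin. In V5 it read 0.52 at 38.4 g/L, 1.73 at 35 g/L, 1.54 at 25.5 g/L, 1.12 at 24.4 g/L, 2.29 at 10.5 g/L and 2.12 at 7.4 g/L. In V5.TM6*P it read 4.14 at 36.5 g/L, 3.45 at 34.8 g/L, 3.07 at 26.3 g/L, 3.53 at 25.1 g/L, 2.90 at 13.5 g/L and 2.79 at 5.6 g/L. The highest wild-type values and the lowest mutant values both came from the samples under 20 g/L, and the gap between the strains was 0.50 log2 units.

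**Figure D1:**
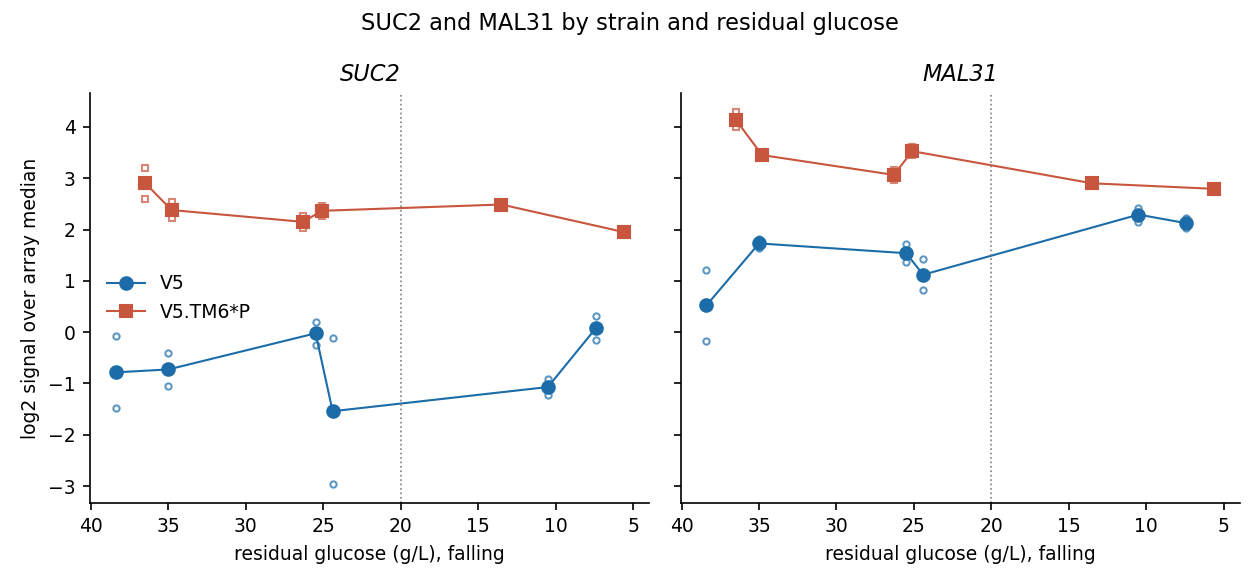
Log2 signal over the array median (y axis) of SUC2 and MAL31 against residual glucose in g/L, which falls from left to right, for V5 (blue circles) and V5.TM6*P (red squares). Filled symbols are RNA samples, small open symbols the 2 arrays of each, and the dotted line marks 20 g/L. SUC2 stays apart between strains at all glucose levels, with 1 wild-type array at -2.96, while the MAL31 lines come closer below 20 g/L.

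The strain difference was tested with limma across all probes. SUC2 was 8.28-fold higher in V5.TM6*P (log2 difference 3.05, 95% confidence interval 2.46 to 3.64, limma adjusted p = 4.69e-05), the 7th highest difference of the 6330 probes. MAL31 was 3.39-fold higher (log2 difference 1.76, 95% confidence interval 1.08 to 2.44, limma adjusted p = 0.00367), the 52nd highest. Among all probes, 12.2% passed the same test in either direction and 6.79% passed it as higher in the mutant, and 4.83% had no overlap between the strains with the mutant on top, as both genes had. The median difference over all probes was -0.05 log2 units.

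The size of the SUC2 fold rests on a dim wild-type signal. Before normalisation the SUC2 spot gave 1.71 to 20.2 scanner units above its local background on the 12 V5 arrays, with a median of 12.1, and on 10 of these arrays it was dimmer than the background beneath it. On the 12 V5.TM6*P arrays it gave 45.9 to 147 units, and on none was it dimmer than its background. No SUC2 or MAL31 spot was marked empty by the imaging software or fell under the floor of 0.1 units on any of the 24 arrays.

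MAL31 spots stood above their background in both strains, apart from the first spot on 1 V5 array, where the net signal was under it. Its first spot gave 14.0 to 103 units above background in V5 and 87.1 to 321 in V5.TM6*P, and its second spot 14.2 to 89.9 and 104 to 302. The spots of the same array differed by a median of 0.20 log2 units and by 1.01 at most. Taken alone, the first spot gave a strain difference of 1.81 and the second 1.70, both past the test (limma adjusted p = 0.00319 and 0.00516).

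**Figure D2:**
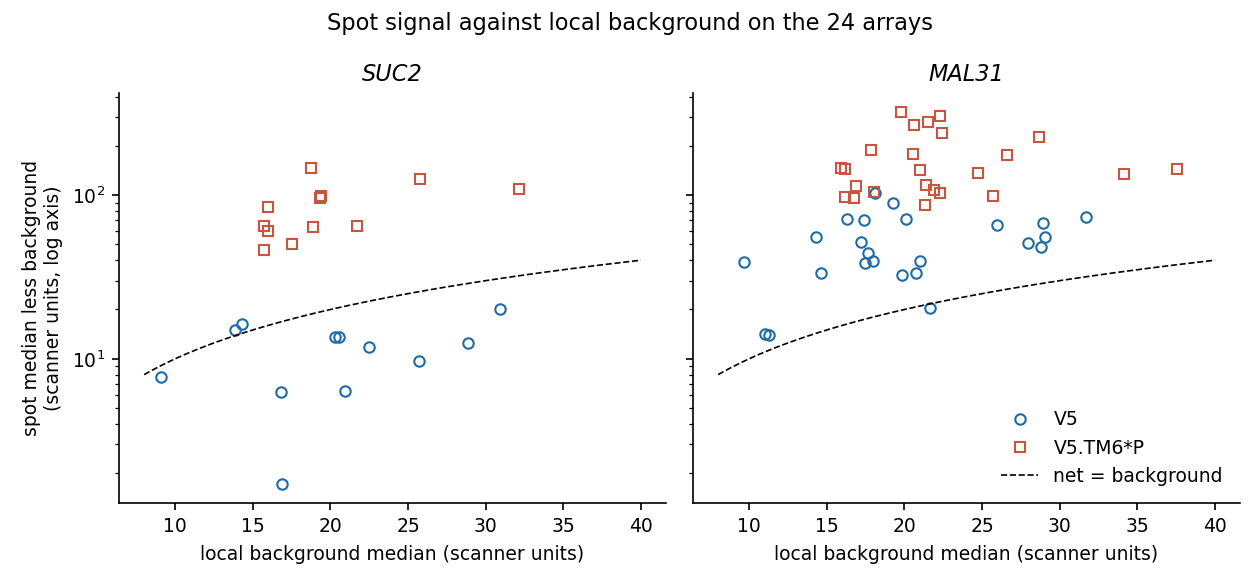
Spot median less local background (y axis, scanner units, log axis) against the local background median (x axis, scanner units) for the SUC2 spot and both MAL31 spots on the 12 arrays of V5 (blue circles) and the 12 of V5.TM6*P (red squares). Along the dashed line the net signal equals the background: 10 of the 12 wild-type SUC2 spots lie below it and all mutant spots above it.

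The difference in fold between the genes was lost under 1 processing setting. On the main scale the strain difference was 1.29 log2 units larger for SUC2 than for MAL31, a ratio of folds of 2.45 (exact two-sided permutation test over 924 assignments of the samples, on the log2 difference between the genes in each sample, p = 0.00216, the smallest that 6 against 6 samples can give). With limma's normexp correction, an offset of 50 units and quantile normalisation, which pull dim values together, the strain differences were 1.09 for SUC2 and 1.06 for MAL31, 0.03 log2 units apart (exact permutation test, p = 0.861). Both genes stayed past the test of the strain difference under that setting. In 21 alternatives the difference between the genes stayed past the threshold, among them quantile normalisation alone (1.30) and the authors' table (1.13). The normexp correction and its offset were not tested apart from each other or without quantile normalisation.

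Arrays of the same RNA disagreed most where the signal was dim. The 2 arrays of a sample differed in SUC2 by a median of 0.56 log2 units in V5 and 0.22 in V5.TM6*P, and in MAL31 by 0.32 and 0.13. The widest gap was that of SUC2 in V5 at 24.4 g/L, where the arrays read -0.12 and -2.96, so the lowest SUC2 value of the series rests on 1 array. Without that array the strain difference of SUC2 was 2.81 (limma adjusted p = 3.36e-05). MAL31 in V5 at 38.4 g/L read -0.18 on the first array and 1.22 on the second, and without the first the strain difference of MAL31 was 1.64 (limma adjusted p = 0.00202).

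The highest sample of both genes, V5.TM6*P at 36.5 g/L, was measured wholly on arrays whose image names carry another print lot, as was 1 array of V5.TM6*P at 34.8 g/L. The image names of all V5 arrays carry the main lot. The sample titles disagree with the image names and give all 24 arrays 1 lot, so a lot difference is not settled. Without these 3 arrays the strain difference was 2.91 for SUC2 (limma adjusted p = 2.41e-04) and 1.60 for MAL31 (limma adjusted p = 0.00816).

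Taken sampling point by sampling point, the strain difference of SUC2 showed no steady course and that of MAL31 was small at the last points. SUC2 differed by 3.69, 3.11, 2.17 and 3.91 log2 units at the points over 20 g/L, and by 3.56 and 1.87 at the lower ones. MAL31 differed by 3.62, 1.72, 1.53 and 2.41 over 20 g/L, and by 0.61 and 0.67 below it. The glucose of the strains was close but not equal at each point, and the points were not matched cultures.

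**Figure D3:**
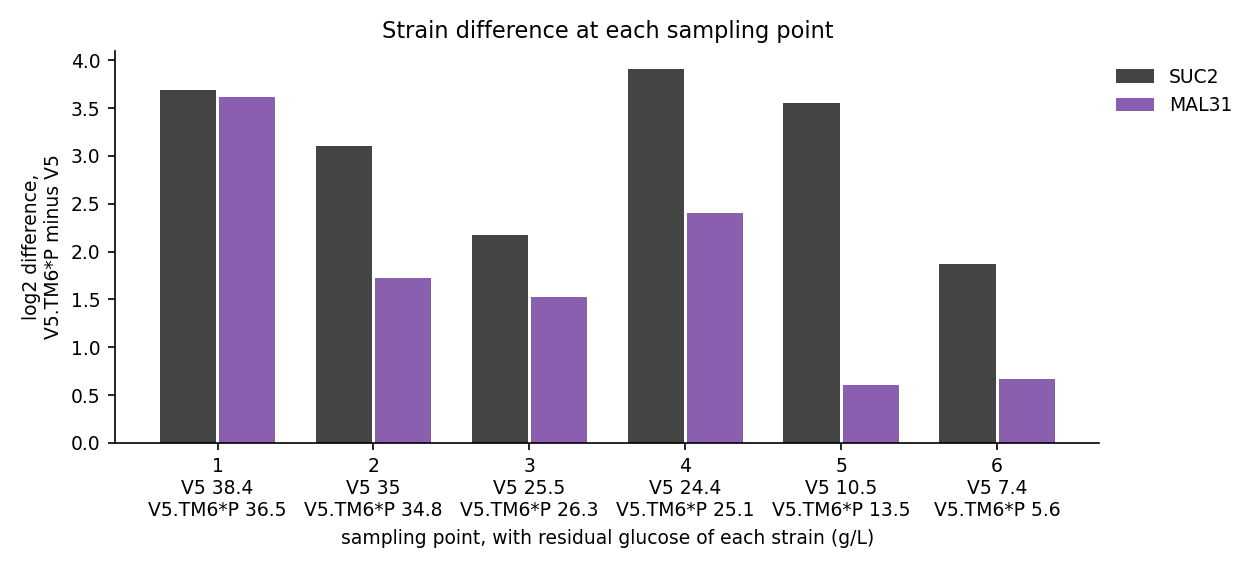
Difference in log2 signal between V5.TM6*P and V5 (y axis) at each of the 6 sampling points (x axis, with the residual glucose of each strain in g/L) for SUC2 (grey bars) and MAL31 (purple bars). Each bar is the difference of 1 RNA sample per strain and has no error; MAL31 bars at the last points are 0.61 and 0.67.

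The strains were then compared in each glucose range, with 4 samples per strain at or over 20 g/L and 2 under it, in a limma fit of the 4 groups. At high glucose SUC2 was 9.30-fold higher in the mutant (log2 difference 3.22, SE 0.35, limma adjusted p = 5.17e-04) and MAL31 4.99-fold (2.32, SE 0.29, limma adjusted p = 0.00115), against 8.5% of all probes that passed. At low glucose SUC2 was 6.56-fold higher (2.71, SE 0.49, limma adjusted p = 0.0409), and 0.9% of all probes passed. MAL31 at low glucose differed by 0.64 log2 units and did not pass (95% confidence interval -0.27 to 1.55, limma adjusted p = 0.503). The low-glucose call of SUC2 was lost without the other print lot and in 8 of the 12 fits that each left out 1 RNA sample, those without V5 at 38.4, 35 or 10.5 g/L or without 1 of the V5.TM6*P samples, except that at 5.6 g/L (limma adjusted p up to 0.163).

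Within a strain, no glucose effect on either gene passed the test. Slopes are given in log2 units per 10 g/L fall in glucose. SUC2 changed by 0.11 in V5 (SE 0.17, limma adjusted p = 0.869) and by -0.18 in V5.TM6*P (SE 0.18, limma adjusted p = 0.959), and the wild-type sign turned without the 7.4 g/L sample, to -0.13. Its 95% confidence interval in V5, -0.27 to 0.49, holds both a fall and a rise.

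MAL31 had slopes of opposite sign in the strains. It was 0.41 in V5 (SE 0.13, unadjusted p = 0.0106 and adjusted p = 0.234 by limma) and -0.35 in V5.TM6*P (SE 0.14, unadjusted p = 0.0296 and adjusted p = 0.760 by limma). The difference of these slopes, -0.76 (SE 0.19, unadjusted p = 0.00245), ranked 34th of the 6330 probes by p and missed the threshold after adjustment (limma adjusted p = 0.422). For SUC2 that difference was -0.29 (SE 0.25, limma adjusted p = 0.799). The V5 slope of MAL31 was 0.27 without the 38.4 g/L sample and 0.28 without the first array of that sample.

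The same held for the glucose ranges. From high to low glucose MAL31 moved by 0.98 log2 units in V5 (limma adjusted p = 0.388) and by -0.70 in V5.TM6*P (limma adjusted p = 0.873), with an interaction of -1.68 (SE 0.50, limma adjusted p = 0.606). SUC2 moved by 0.27 and -0.23, with an interaction of -0.50 (SE 0.61, limma adjusted p = 0.882).

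Few probes of any kind passed these glucose tests. The slope in V5 was called for 0.0158% of probes, which is 1 probe, the hexokinase gene HXK1, with a slope of 1.27 (SE 0.14, limma adjusted p = 0.0195). The slope in V5.TM6*P, the difference of the slopes and the interaction of strain and range were each called by limma for 0% of probes, while 378, 515 and 456 probes had an unadjusted p under 0.05. Low against high glucose was called for 0.0632% of probes in V5 and 0.0158% in V5.TM6*P.

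The mutant at high glucose was also set against the wild type at low glucose. For both genes this difference lay between the strain differences at low and at high glucose. Those were 2.71 and 3.22 log2 units for SUC2, and 0.64 and 2.32 for MAL31. For SUC2 the mutant at high glucose exceeded the wild type at low glucose by 7.70-fold (log2 difference 2.94, SE 0.43, limma adjusted p = 0.0121). Without the V5 sample at 10.5 g/L the difference was 2.37 and the call was lost (limma adjusted p = 0.0795). MAL31 was 2.53-fold higher (1.34, SE 0.36) and did not pass (limma adjusted p = 0.101), and 1.63% of all probes passed. With the authors' own background-subtracted table in place of the scanner values MAL31 did pass, at 1.39 (limma adjusted p = 0.0276).

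A search for the probes most like each gene compared log2 profiles over the 12 RNA samples, each centred on its own mean, by their root mean square difference. For SUC2 the closest named genes were ODC1, a mitochondrial carrier of oxodicarboxylates, at 0.52, PUT4, a proline permease gene, at 0.53, GUT1, glycerol kinase, at 0.54, OM45, a mitochondrial outer membrane protein, at 0.57, and PCK1, the gluconeogenic phosphoenolpyruvate carboxykinase, at 0.65. The median over all other probes was 1.69. These genes were 7.45-fold, 6.48-fold, 6.26-fold, 7.01-fold and 5.33-fold higher in V5.TM6*P, in that order. In each the highest V5 sample lay below the lowest V5.TM6*P sample, as in 4.83% of all probes. Being chosen by likeness to SUC2, they are bound to share much of its strain difference. None of them is a gene of sucrose or maltose use, but the naming left little room for one. Of such genes on the list read further below, only SUC2 and MAL31 could be tied to a probe.

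For MAL31 the closest named genes were FMP43 at 0.28, SDH3, a subunit of succinate dehydrogenase, at 0.30, YER067W at 0.33, STF2, which acts on the mitochondrial ATP synthase and in desiccation tolerance, at 0.34, and EMI2, a glucokinase paralogue, at 0.36, against a median of 1.15. FMP43 encodes a mitochondrial pyruvate carrier subunit. These genes were 4.62-fold, 3.79-fold, 3.70-fold, 3.07-fold and 4.25-fold higher in the mutant, and all had, as MAL31 had, a positive slope in V5, from 0.26 to 0.63, and a negative one in V5.TM6*P, from -0.25 to -0.13, per 10 g/L fall. SUC2 and MAL31 were 0.83 apart. MAL31 was the 28th closest probe to SUC2, and SUC2 the 509th closest to MAL31. Likeness of profile is a description with no test, and candidates could be named only among 985 probes, most of which the study had listed for their difference between these strains. The folds and slope signs that these genes share with MAL31 follow in part from choosing them by likeness.

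**Figure D4:**
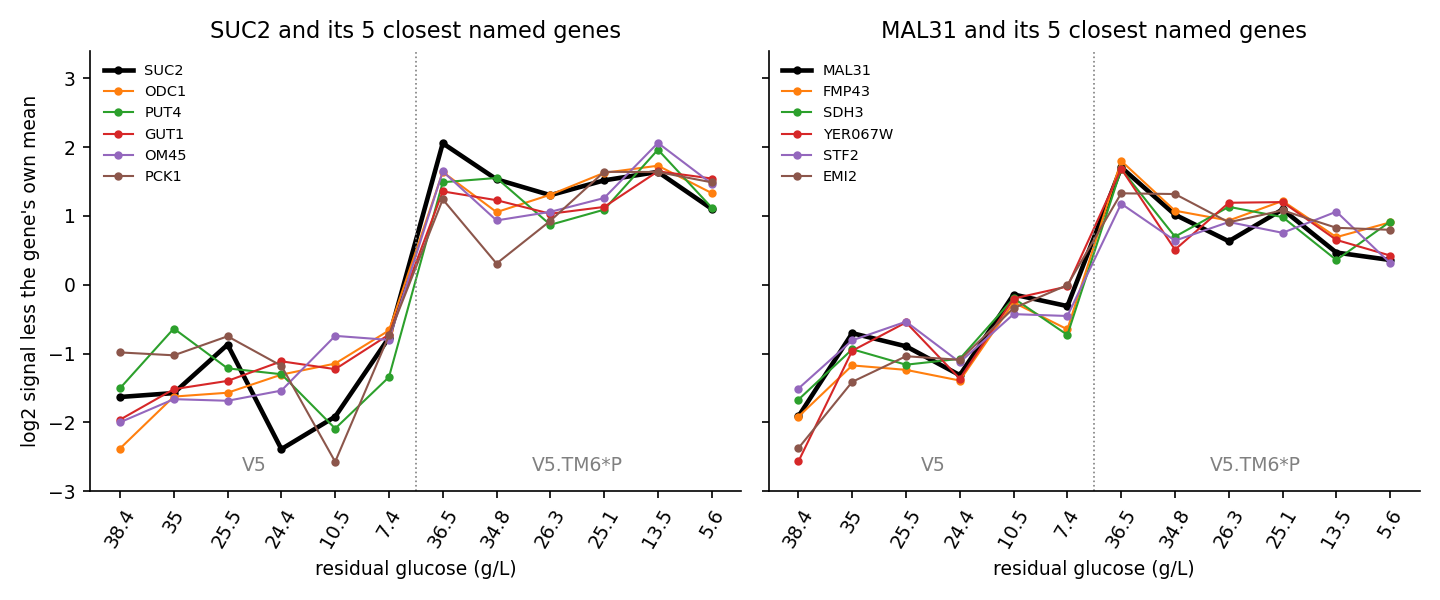
Log2 signal less each gene's own mean (y axis) over the 6 V5 and the 6 V5.TM6*P samples, ordered by falling residual glucose in g/L (x axis), for SUC2 (left) and MAL31 (right) in black with their 5 closest named genes in colour. All lines step up between the strains. Those around MAL31 climb within V5 and drift down within V5.TM6*P. Around SUC2 the lines of ODC1, GUT1 and OM45 climb within V5 too.

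A list of 44 genes of sugar uptake, hydrolysis and phosphorylation and of glucose repression was read beside them, and 12 of these, SUC2 and MAL31 included, could be tied to a probe. In V5.TM6*P 10 of the 12 were called higher, 0 lower, and 2 did not pass, beside 6.79% of all probes called higher and 12.2% in either direction. The median difference of the 12 was 1.97 log2 units, beside -0.05 over all probes. With normexp and with the authors' table, 11 were called higher and 0 lower. The study had picked nearly all of these genes on the same samples, so this count is no independent evidence of direction. MIG2 and MIG3, which the study reports as lower in V5.TM6*P, were on the list but could not be tied to a probe. The count of 0 lower does not cover them.

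Among the transporters, the hexose and polyol transporter genes HXT13 and HXT15, which are not among those deleted, were 8.54-fold (SE 0.64 on the log2 difference of 3.09, limma adjusted p = 0.00836) and 5.56-fold higher (2.47, SE 0.45, limma adjusted p = 0.00373). HXT16 differed by 1.96 log2 units with a wide error (SE 0.66, limma adjusted p = 0.0735). All 3 spots were dimmer than their local background on each of the 12 V5 arrays, and on 2, 7 and 12 of the V5.TM6*P arrays in the same order. The sizes of these folds depend on the processing. In the normexp setting the differences of HXT13 and HXT15 were 0.47 and 0.29 log2 units, still past the test (limma adjusted p = 2.14e-04 and 1.40e-04). HXT16 did pass in that setting, at 0.16 (limma adjusted p = 0.00580), and with the authors' table, at 1.79 (limma adjusted p = 0.00292). SNF3, the high-affinity glucose sensor gene, was 1.59-fold higher (limma adjusted p = 0.0285). The SNF3 spot was dimmer than its background on 8 V5 arrays and 2 V5.TM6*P arrays. In the normexp setting its difference was 0.19 log2 units (limma adjusted p = 0.00988). These transporter genes belong to a family of near-identical copies, as do the MAL and SUC genes at other loci of some yeast strains, and spotted gene fragments may bind transcripts of close relatives. Cross-hybridisation was not tested.

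The named genes for hexose-phosphorylating enzymes were higher in the mutant. HXK1, a hexokinase kept low by glucose, was 7.49-fold higher (limma adjusted p = 0.00921), GLK1, glucokinase, 3.92-fold (limma adjusted p = 0.0107) and EMI2 4.25-fold (limma adjusted p = 0.00171). GLK1 was dimmer than its background at 6 of its 24 V5 spot readings and EMI2 at 4 of 12. In the normexp setting the differences of HXK1, GLK1 and EMI2 were 2.48, 1.03 and 1.01 log2 units, still past the test (limma adjusted p = 0.00285, 0.00403 and 5.84e-05). In V5 these genes had slopes of 1.27, 0.85 and 0.63 per 10 g/L fall, of which only that of HXK1 passed the test. The MAL31 slope of 0.41 was smaller than these and the SUC2 slope of 0.11 smaller still, though differences between genes in slope were not tested.

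Among regulators, HAP4, which encodes the activating subunit of the Hap complex of respiratory genes, was 2.14-fold higher (limma adjusted p = 0.00150), and NRG1, a repressor that acts beside Mig1 at SUC2, was 1.61-fold higher (limma adjusted p = 0.0229). The NRG1 spot was dimmer than its background on 12 V5 arrays and 5 V5.TM6*P arrays, and the HAP4 spot on 6 V5 arrays. In the normexp setting the differences were 0.18 log2 units for NRG1 and 0.40 for HAP4, still past the test (limma adjusted p = 0.0127 and 2.45e-04). CAT8, an activator of gluconeogenic genes, differed by 0.44 log2 units and did not pass (SE 0.53, limma adjusted p = 0.662). Its spot was dimmer than its background on all 24 arrays, and its direction was not settled. With the authors' table the difference was -0.31 (limma adjusted p = 0.645), and at high glucose alone -1.05 (limma adjusted p = 0.0316). The CAT8 probe was named by a match to that high-glucose difference, so this value is no separate evidence. With the scanner values the high-glucose difference was -0.12 (limma adjusted p = 0.936). The normexp setting gave 0.02 over all samples (limma adjusted p = 0.795). No order of the 12 genes by fold is given, because it depends on the processing. At low glucose, SUC2 and HXT15 passed the test of the strain difference (limma adjusted p = 0.0409 and 0.0257), 2 of the 12 beside 0.9% of all probes. The SUC2 call is the one lost in 8 of the 12 fits without 1 RNA sample, and HXT15 was not called with the authors' table (limma adjusted p = 0.772).

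**Figure D5:**
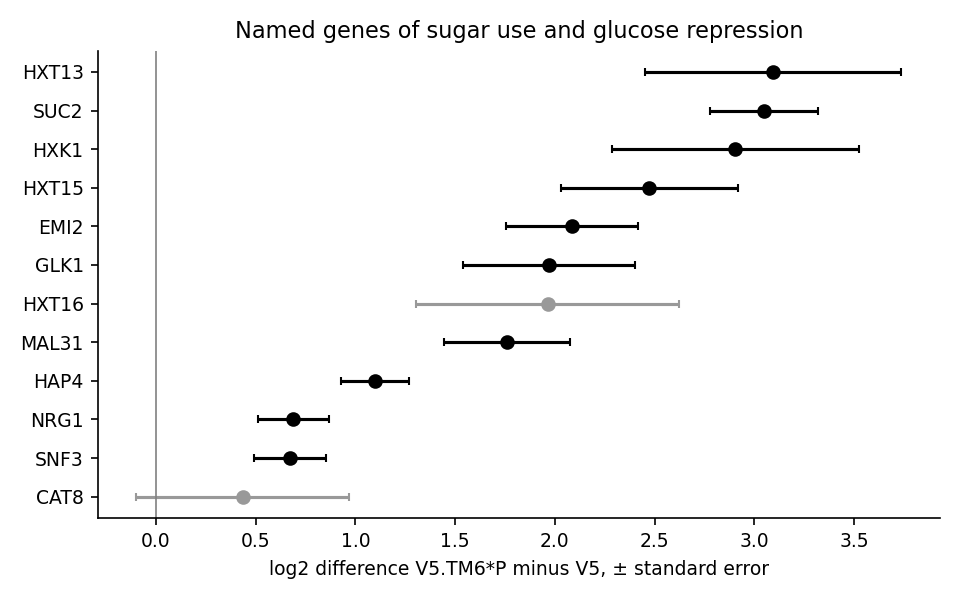
Log2 difference between V5.TM6*P and V5 (x axis, points with ± 1 standard error, 6 samples per strain) for the 12 named genes of sugar use and glucose repression. Black points passed the limma test across all probes and grey points, HXT16 and CAT8, did not. The spots of HXT13, HXT15, HXT16, NRG1 and CAT8 were dimmer than their background on all V5 arrays.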

How the data were processed

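The members and lists were chosen with earlier results of these data known. Per the labels and methods, spots were PCR products of yeast genes, and the authors scanned phosphor screens and quantified spots with ImaGene (5.6.2 per the file headers), giving a median spot intensity and a median local background intensity. The deposited table of background-subtracted intensity values, scaled in a way not given in the sources used here, was an alternative. The deposited empty-spot marks, 0 or 1 from the imaging software and no score of expression, were another.

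Net intensity was floored at 0.1, taken as log2, averaged over repeat spots (MAL31 has 2, SUC2 has 1), centred on the array median and averaged over both arrays of an RNA sample. Across arrays, the median net signal was 11.4 to 22.9 units and the median background 12.1 to 31.5 units; 1.49% of values were under the floor. The number of arrays limits the precision. limma 3.58.1 (R 4.3.3) fitted all 6330 probes, two-sided, with Benjamini-Hochberg adjustment at 0.05. The fits were tested on simulated data.

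The files do not pair spots with gene names. A probe was named where its fold between strains and base level, computed from the deposited table, matched 1 gene of the study's lists and no other; 985 of 1050 listed genes were named so. The match used the deposited table and the lists' own comparison (for CAT8, high glucose alone), so agreement of named probes with those lists there is no independent check; values in the text come from the scanner files and can differ. HXT1 to HXT7 were not named in this way, so the deletion was not checked. For each gene the 5 named probes closest in profile are given. RefSeq R64 supplied gene order and chromosomes; no protein or promoter sequence was used here.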

Additional observations from a re-analysis of the deposited data

How the results depend on the processing

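The strain differences of SUC2 and MAL31 stayed past the threshold in every alternative run, from 1.09 to 3.22 log2 units for SUC2 over 26 alternatives and from 1.06 to 2.32 for MAL31 over 28. The lowest values came from normexp with an offset of 50 and quantile normalisation. Under that setting the excess of the SUC2 difference over that of MAL31 fell to 0.027 (exact permutation test, p = 0.861). Sampling point numbers were not used as pairs in the main analysis. With each strain's mean removed, same-numbered samples correlated weakly, at 0.02 to 0.05. Still, 10 of 12 samples were closest to their own number, a hint of shared structure from the data only. With the number as a replicate block, SUC2 stayed at 3.05 (limma adjusted p = 0.00360) and MAL31 at 1.76 (limma adjusted p = 0.0405), with 506 probes called in place of 772.

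MAL31 in V5.TM6*P at high against V5 at low glucose passed the limma threshold with the authors' table (1.39, adjusted p = 0.0276), normexp (0.93, adjusted p = 0.0187), a variance trend (1.34, adjusted p = 0.0129) and, chosen after seeing the data, without array 1 of V5 at 38.4 g/L (1.34, adjusted p = 0.0479). SUC2 at low glucose lost its limma call without the other print lot (2.71, adjusted p = 0.0571). With 1 RNA sample left out it ran from 2.14 to 3.29, and the lone sample left in a group was assumed to vary like the others. SUC2 in V5.TM6*P at high against V5 at low glucose ran from 2.37 to 3.52 and was lost without V5 at 10.5 g/L.

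None of the glucose effects of SUC2 was called, and the signs of some depended on single samples. Its slope in V5.TM6*P (-0.25 to -0.04) and the difference of its slopes (-0.53 to -0.05) stayed negative in all alternatives. With 1 RNA sample left out, its V5 slope ran from -0.13 to 0.25, low against high glucose from -0.30 to 0.85 in V5 and from -0.50 to 0.038 in V5.TM6*P, and the interaction from -1.08 to 0.071. The signs turned without V5 at 7.4 g/L or, in the mutant, without V5.TM6*P at 5.6 g/L. Without array 2 of V5 at 24.4 g/L, also chosen after seeing the data, low against high glucose in V5 was -0.082. The MAL31 glucose effects kept their signs and stayed uncalled in all alternatives. The cause of these changes was not tested.

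Counts of called probes over the alternatives ran from 471 to 1088 for the strain difference (772 in the main analysis), 334 to 914 at high glucose (538), 24 to 224 at low glucose (57), 38 to 363 for V5.TM6*P at high against V5 at low glucose (103) and 0 to 151 for the slope in V5 (1). They ran from 0 to 3 for the slope in V5.TM6*P (0), 0 to 5 for the difference of the slopes (0), 0 to 29 for low against high glucose in V5 (4), 0 to 53 in V5.TM6*P (1) and 0 to 30 for the interaction (0).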
